A study of Mus musculus with 56 samples.

Results

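The P446L change in glucokinase regulatory protein (GKRP, gene Gckr) was compared in the heterozygous state. Livers of 8 GKRP-446P/L mice (PL, mice 21 to 28) were set against livers of GKRP-446P mice (PP, mice 1 to 10), none of which received the activator compound named GKA. PP mouse 7 was left out because its profile differs from the other PP mice and the published comparison drops it too. The comparison therefore held 9 PP and 8 PL livers, which is 17 of the 56 liver RNA-seq libraries. All were male mice of the genome-edited knock-in line GCKR-P446L-EMI-B6N, 28 weeks old, and every group had been on the high-fat high-sugar diet (HFHSD) for the last 20 weeks. The diet pellets held 45% of their energy as fat and the drinking water held 10% glucose and 5% fructose. The other groups used here were homozygous GKRP-446L mice without GKA (LL, n = 10) and PP (n = 10) and PL (n = 8) mice that were given 3 mg/kg of the GKA. The knock-in changes the gene in every tissue and is a single line, and each library came from a piece of the left lateral lobe of 1 mouse. Litter, cage, batch and time of day were not given in the sources used here.

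GKRP is a nuclear regulator of glucose metabolism in hepatocytes that responds to phosphorylated sugars. The leucine form of GKRP is a common human variant known for its association with blood triglycerides and glucose. Glycolytic and lipogenic genes of the liver respond to glucose, chaperone genes respond to protein load in the cytosol and the endoplasmic reticulum (ER), and clock genes follow the time of day and feeding.

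The codon that names the alleles lies at the end of an exon, and it is shown as the reference sequence of the transcript with most Gckr reads, Gckr-202. Codon 446 of its 623 codons is CCA, proline, at chr5:31466275-31466277 on the plus strand (GRCm39), the last 3 coding bases of exon 15. The 27 bases below run from chr5:31466263-31466277 in exon 15 into chr5:31466365-31466376 in exon 16, with the codon in capitals.
Gckr: gggcagtccttgCCAgctcctctaaag

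Expression was measured as estimated reads per transcript, summed per gene and scaled to CPM by the library total times a factor for its composition (TMM). The 17 livers held 5591540 to 8018475 reads each (median 6748769), and the PP and PL ranges overlapped. Genes were tested with edgeR's quasi-likelihood test. A gene counted as differentially expressed (DEG) when its p, adjusted by Benjamini and Hochberg's method, was below 0.05 and PL over PP was 1.3 or more, or 0.7 or less. Of 10580 genes tested, 16 were DEGs (0.151%), of which 5 rose and 11 fell in PL livers. An unadjusted p below 0.05 was reached by 1069 genes (10.1%), against 529 that the threshold alone would give, and these split into 538 higher and 531 lower. The median log2 fold change over all genes tested was -0.0038. The number of DEGs depended on the processing, with 68 by DESeq2, 33 with PP mouse 7 kept, 0 with an offset for transcript length, and 5 to 31 when 1 mouse was left out.

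Hepatocyte markers were abundant in both groups and none was a DEG. Their summed level over 7 markers, led by Alb (albumin), ranged from 93610 to 134800 CPM in PP and from 85010 to 115600 CPM in PL. Of the 7, 5 were on the low side in PL, and 1 of them, Hnf4a, had an unadjusted p below 0.05 (log2 fold change -0.18, p = 0.0244 by edgeR). Over all genes tested, 5.02% were lower at that threshold. Markers of pancreas, skeletal muscle, T and NK cells and B cells were too low to be tested. Of 8 macrophage markers tested, 0 reached an unadjusted p below 0.05, and the summed level of the 10 on the list was 158.9 to 348.6 CPM in PP and 82.0 to 355.9 CPM in PL. Among 7 stellate cell and fibroblast markers tested, 2 were lower at that threshold, against 5.02% of all genes. They were Lum (log2 fold change -0.53, p = 0.0143 by edgeR) and Dcn (-0.22, p = 0.0432). In these bulk samples, fewer cells of a type and less RNA per cell cannot be told apart.

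The transcript of the gene that carries the change did not pass the test. Gckr ranged from 150.8 to 231.6 CPM in PP (median 174.7) and from 145.2 to 218.0 CPM in PL (median 167.6). The groups overlapped over nearly their whole range, with a log2 fold change of -0.05 ± 0.10 (SE).

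The 16 DEGs fell into a few kinds of function. Chaperones of the heat-shock family (Hsph1, Dnajb1, Hspa8, Hspa1b) fell. Regulators of transcription and RNA processing (Irf2bp2, Tsc22d3, Srsf10, Rbm15b) fell as well. Enzymes and a carrier of lipid, bile acid and collagen metabolism moved in both directions (Lipe and Acaa1a rose, Acnat2, Slc10a2 and P4ha1 fell), and the clock repressors Cry2 and Per3 and the transducin gene Gnat1 rose. In each of the 16, all 8 PL livers lay above, or all lay below, the mean of PP, and in 4 of them (Irf2bp2, Lipe, Dnajb1 and Gnat1) the PP and PL ranges did not overlap. Over all genes tested, 8 (0.0756%) had ranges that did not overlap. The 16 genes were picked on these same livers, so these counts are no separate support. Genes that were not DEGs, such as Bag3 and Dnaja1, also had all 8 PL livers on 1 side of the PP mean.

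In the GENCODE annotation of GRCm39 the gene bodies, with their strands, lay on 9 chromosomes. The chaperones lay as Hsph1 at chr5:149537636-149560156 (minus), Dnajb1 at chr8:84334811-84339820 (plus), Hspa8 at chr9:40711630-40731039 (plus) and Hspa1b at chr17:35175412-35178214 (minus). The regulators were Irf2bp2 at chr8:127313038-127320753 (minus), Tsc22d3 at chrX:139440091-139501408 (minus), Srsf10 at chr4:135583043-135602548 (plus) and Rbm15b at chr9:106758117-106764627 (minus). The metabolic genes were Lipe at chr7:25078880-25098135 (minus), Acaa1a at chr9:119168742-119182956 (plus), Acnat2 at chr4:49373662-49408151 (minus), Slc10a2 at chr8:5133219-5155351 (minus) and P4ha1 at chr10:59159092-59209126 (plus). The clock genes and transducin were Cry2 at chr2:92233894-92264474 (minus), Per3 at chr4:151081373-151129140 (minus) and Gnat1 at chr9:107551673-107556911 (minus).

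**Figure D1:**
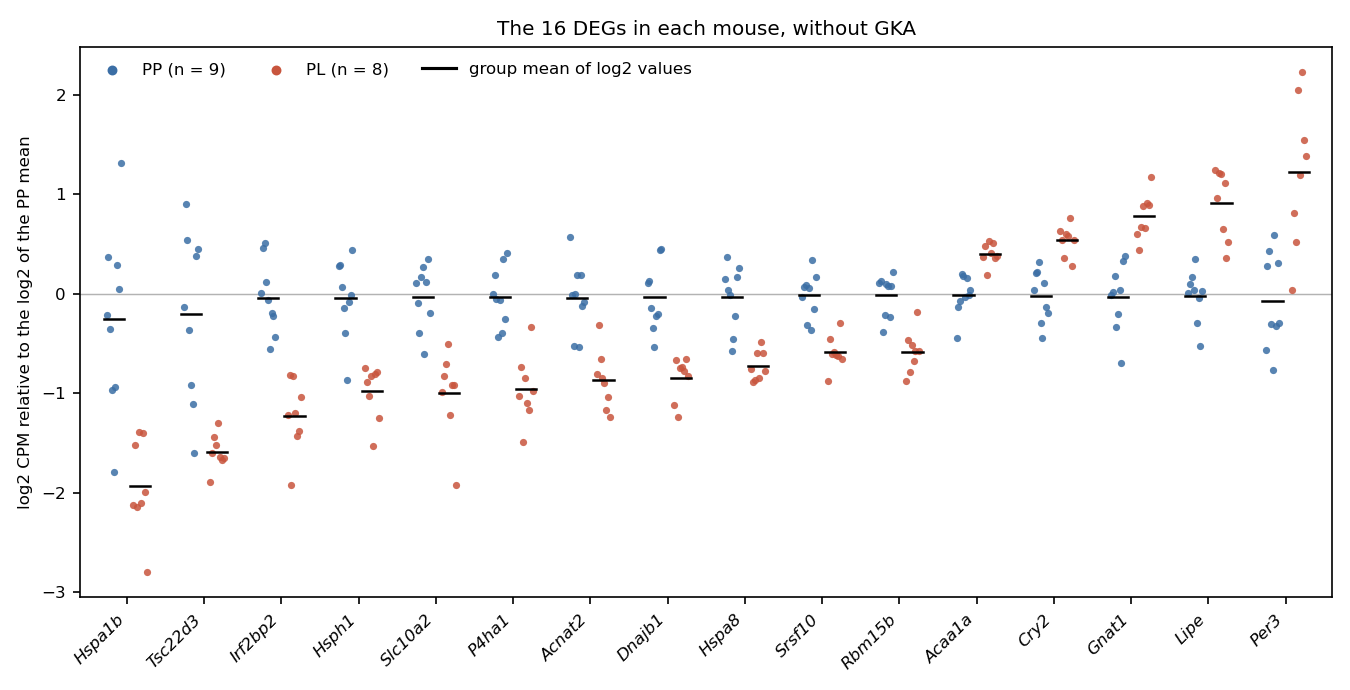
Each point is 1 liver without GKA, with its log2 CPM given relative to the log2 of the PP mean (y axis) for the 16 DEGs (x axis), PP in blue (n = 9) and PL in red (n = 8), with lines at the group means of the log2 values. The PL points lie below the PP mean for 11 genes and above it for 5, and Hspa1b and Tsc22d3 show the widest PP spread.

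Hsph1 encodes an HSP110 chaperone that works as a nucleotide exchange factor for HSP70. It ranged from 26.7 to 66.3 CPM in PP (median 48.4) and from 16.8 to 29.1 CPM in PL (median 27.0). The only overlap came from PP mouse 6 at 26.7 CPM, and the log2 fold change was -0.96 ± 0.15 (edgeR adjusted p = 0.0158). Dnajb1, a J-domain protein that delivers unfolded clients to HSP70, ranged from 9.73 to 19.2 CPM in PP (median 12.7) and from 5.98 to 8.96 CPM in PL (median 8.33). Every PL liver was below every PP liver, with a log2 fold change of -0.82 ± 0.14 (adjusted p = 0.0158).

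Hspa8, the abundant constitutive HSP70, was 769.9 to 1483 CPM in PP (median 1178) and 620.0 to 818.1 CPM in PL (median 673.5). Only PP mouse 5, at 769.9 CPM, lay inside the PL range, and the log2 fold change was -0.72 ± 0.12 (adjusted p = 0.0158). Hspa1b encodes the inducible HSP70. It was 2.54 to 21.9 CPM in PP (median 7.61) and 1.27 to 3.36 CPM in PL (median 2.13), with a log2 fold change of -1.84 ± 0.34 (adjusted p = 0.0303). PP mouse 5 at 2.54 CPM lay inside the PL range, while PP mouse 10 at 21.9 CPM lay far above the other PP livers. Between 7 and 147 reads per liver stood behind these values. Hspa1a, a nearly identical neighbour of Hspa1b whose reads could be assigned to either copy, was at 0 to 1.19 CPM and was not tested.

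Beyond the DEGs, most of the heat-shock list lay on the low side. Of 34 listed genes 31 were tested, and 17 of them were lower in PL at an unadjusted p below 0.05, against 5.02% of all genes, while 0 were higher at that threshold, against 5.09% of all genes. The list median log2 fold change was -0.24, beside -0.0038 over all genes tested. With the transcript length offset 6 of the 31 were lower at that threshold, which 929 of all genes reached in either direction, and the sign of Chordc1 turned (0.0244). The 9 HSP90 genes and co-chaperones were all lower and 8 of them passed that threshold, among them Hsp90aa1, the inducible HSP90 (174.5 to 270.6 CPM in PP, 134.9 to 197.9 CPM in PL, log2 fold change -0.48). Chordc1, an HSP90 co-chaperone, was 19.6 to 35.8 CPM in PP and 8.80 to 22.8 CPM in PL (-0.69), and Stip1, which bridges HSP70 and HSP90, was 48.8 to 74.1 CPM in PP and 37.1 to 54.3 CPM in PL (-0.38). Neither those 3 genes nor Bag3 (-0.69), an HSP70 exchange factor, passed the adjusted threshold, with adjusted p values of 0.0685, 0.0730, 0.123 and 0.159 by edgeR.

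The J-domain proteins held the only other heat-shock gene past the adjusted threshold. Dnajb4 ranged from 14.3 to 21.6 CPM in PP (median 17.7) and from 11.4 to 16.3 CPM in PL (median 12.5). The ranges overlapped at the low end of PP, and its log2 fold change of -0.44 ± 0.09 (edgeR adjusted p = 0.0383) missed only the fold threshold. The heat-shock factors Hsf1 and Hsf2, the mitochondrial chaperonin genes Hspd1 and Hspe1, and the small heat-shock proteins Hspb1, Hspb6 and Hspb8 had no member at an unadjusted p below 0.05. Their log2 fold changes lay between -0.09 and 0.11.

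The ER chaperone and unfolded protein response list showed a lower side too, without a DEG. Of 25 genes tested, 23 were lower in PL and 13 of them had an unadjusted p below 0.05, against 5.02% of all genes, with a list median of -0.28. With the transcript length offset 6 were lower at that threshold, which 929 of all genes reached in either direction, and the sign of Edem1 turned (0.42). The ER chaperones were lower in 11 of 11 genes, with log2 fold changes from -1.06 to -0.09. Creld2, an ER stress-induced chaperone, was 16.8 to 106.6 CPM in PP (median 54.2) and 13.2 to 40.4 CPM in PL (median 24.8). Hspa5, the main HSP70 of the ER, was 449.1 to 1438 CPM in PP (median 1090) and 498.9 to 897.7 CPM in PL (median 630.7). In both genes the lowest PP livers lay within the PL range, and the adjusted p values were 0.194 and 0.177.

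All 4 genes of ER-associated degradation on the list were lower at an unadjusted p below 0.05. They were Herpud1 (-0.78), Sel1l (-0.42), Edem1 (-0.28) and Syvn1, the ubiquitin ligase of the pathway (-0.91, from a PP median of 110.1 CPM to a PL median of 50.3 CPM). Among sensors and factors, Ddit3, a stress-induced transcription factor, was lower (-0.88 ± 0.20, edgeR adjusted p = 0.0722), as was the kinase Eif2ak3 (-0.69). Trib3, a target of the same branch as Ddit3, was on the high side (0.64, p = 0.0465), and Xbp1, Atf4, Atf6 and Ern1 were between -0.14 and 0.13 with no p below 0.05.

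**Figure D2:**
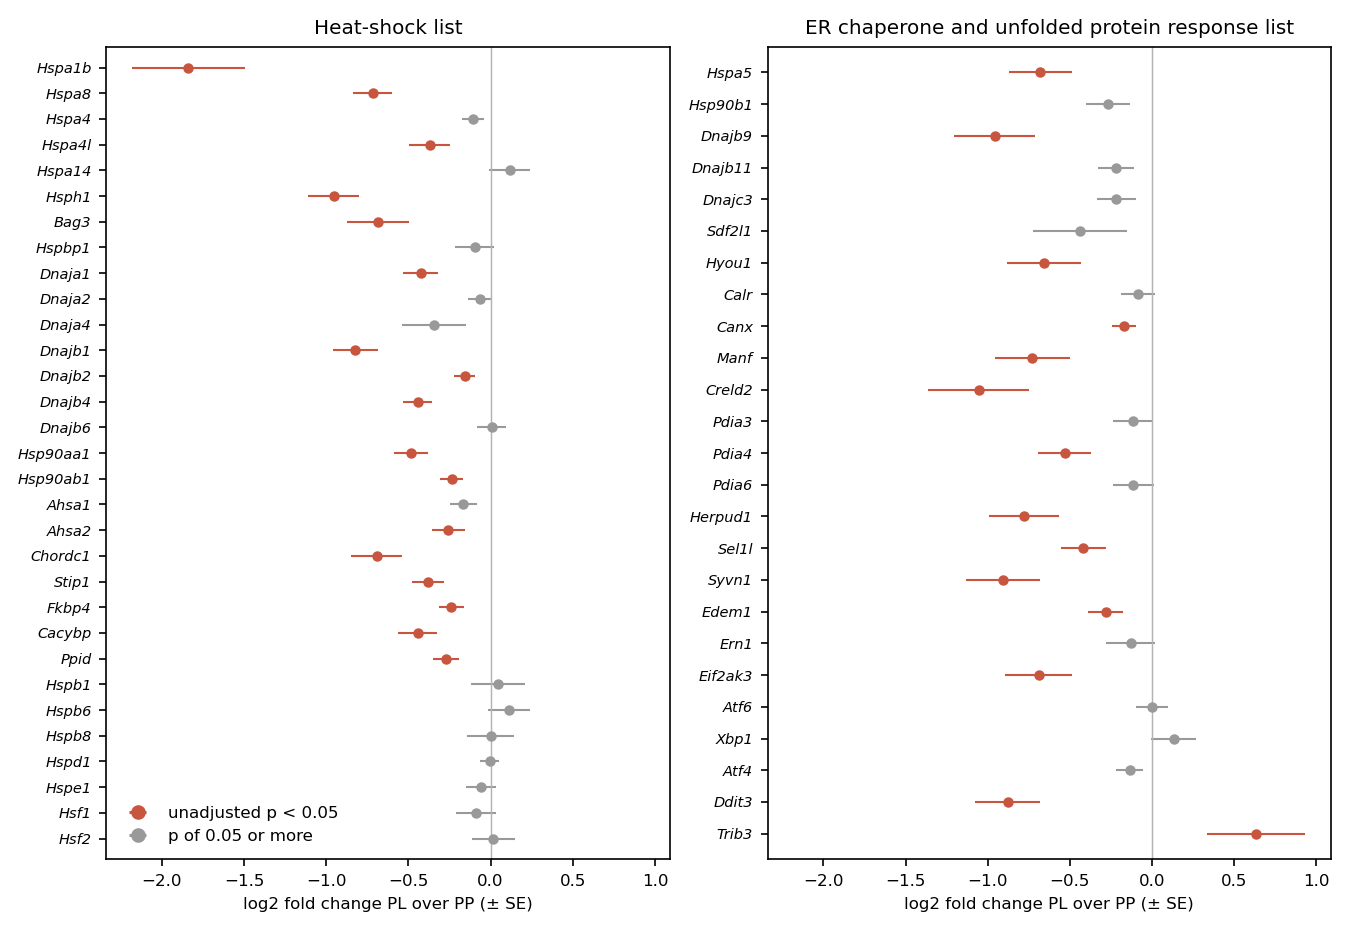
Log2 fold change of PL over PP without GKA with its standard error (x axis) for the 31 heat-shock genes and 25 ER chaperone and unfolded protein response genes tested (y axis, ordered by role), coloured where the unadjusted p was below 0.05. Coloured points lie to the left of 0 for 17 and 13 genes, and Trib3 is the 1 coloured point to the right.

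Sequences upstream of these genes are shown because many chaperone genes lay on the low side together. The 200 bases before the start of each gene's transcript with most reads were read from GRCm39 for all 10580 genes tested, and matches were sought on both strands. The heat-shock element was taken as 2 inverted units, GAANNTTC or TTCNNGAA. It was found before 8 of the 31 heat-shock genes tested (25.8%) and before 8.71% of all genes tested. Among the DEGs, Hspa1b and Hsph1, which fell, and Acaa1a, which rose, held it. So did Dnaja1 (log2 fold change -0.43), Dnajb4 and Fkbp4 (-0.24). Dnajb1 and Hspa8 held no match in this window, while Hspb1, Hspd1 and Hspe1 held one with log2 fold changes from -0.06 to 0.04. A longer form with 3 units was found before 0 of the 16 DEGs and before 0.284% of all genes tested. Among the 31 heat-shock genes 2 held it, Hspd1 and Hspe1. The 2-unit matches are in capitals, 5′ to 3′ on the strand of the gene. They lie at chr17:35178299-35178330 (minus) for Hspa1b, chr5:149559815-149559846 (minus) for Hsph1, chr4:40722332-40722363 (plus) for Dnaja1, chr3:151899483-151899508 (minus) for Dnajb4 and chr6:128415751-128415782 (minus) for Fkbp4.
Hspa1b: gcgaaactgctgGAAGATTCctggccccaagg
Hsph1: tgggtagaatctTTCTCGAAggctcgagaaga
Dnaja1: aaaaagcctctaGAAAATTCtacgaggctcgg
Dnajb4: gttcgttcgctgTTCTAGAAagtaca
Fkbp4: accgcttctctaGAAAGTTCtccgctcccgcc

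The ER stress element, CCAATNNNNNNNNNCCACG, was found before 8 of the 25 genes of the ER list (32.0%), against 15 of all 10580 genes tested (0.142%). The genes were Hspa5, Hsp90b1, Calr, Canx, Pdia6, Dnajc3, Creld2 and Syvn1, and their log2 fold changes in PL ran from -1.06 (Creld2) to -0.09 (Calr), so a match went with large and small differences alike. Acnat2 was the only DEG with a match. The stretches are shown for genes with 1 match, to set the fixed ends of the element beside its variable middle, and the capitals mark the match. They lie at chr2:34662025-34662067 (plus, Hspa5), chr15:88703711-88703753 (plus, Creld2), chr19:6096550-6096592 (plus, Syvn1), chr11:50216615-50216657 (minus, Canx) and chr8:85573692-85573734 (minus, Calr).
Hspa5: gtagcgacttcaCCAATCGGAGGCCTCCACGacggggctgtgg
Creld2: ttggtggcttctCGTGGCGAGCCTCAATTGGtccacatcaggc
Syvn1: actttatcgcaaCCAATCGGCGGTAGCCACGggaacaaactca
Canx: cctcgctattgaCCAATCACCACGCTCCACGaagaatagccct
Calr: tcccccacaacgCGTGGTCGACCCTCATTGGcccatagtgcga

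Irf2bp2, a transcriptional co-repressor, had the smallest p of all genes. It ranged from 18.9 to 39.5 CPM in PP (median 26.5) and from 7.30 to 15.8 CPM in PL (median 12.0). No PL liver reached the lowest PP liver, and the log2 fold change was -1.19 ± 0.16 (edgeR adjusted p = 0.00789). Tsc22d3, a glucocorticoid-induced regulator on chromosome X also known as GILZ, ranged from 21.1 to 119.7 CPM in PP (median 58.3) and from 17.3 to 26.1 CPM in PL (median 20.8). The PP livers spread widely and PP mouse 8, at 21.1 CPM, lay inside the narrow PL range. The log2 fold change was -1.57 ± 0.28 (adjusted p = 0.0191).

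The other 2 regulators are RNA-binding proteins with smaller changes. Srsf10, a splicing factor, was 13.3 to 21.7 CPM in PP (median 17.9) and 9.32 to 14.0 CPM in PL (median 11.2), with 1 PL liver reaching the PP range and a log2 fold change of -0.58 ± 0.10 (edgeR adjusted p = 0.0191). Rbm15b, which takes part in RNA methylation, was 7.22 to 11.0 CPM in PP (median 9.99) and 5.13 to 8.31 CPM in PL (median 6.34). Its ranges overlapped, and the log2 fold change was -0.57 ± 0.11 (adjusted p = 0.0381). In the annotation, 60.9% of the exon bases of Rbm15b are shared on the same strand with exons of Manf, an ER stress gene that was more abundant (mean 100.7 CPM in PP, 60.7 CPM in PL) and also lower (-0.73, p = 0.00503 by edgeR). Reads in the shared bases cannot be told apart by position.

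Lipe, hormone-sensitive lipase, rose. It ranged from 4.38 to 8.03 CPM in PP (median 6.40) and from 8.05 to 14.9 CPM in PL (median 13.0). The ranges did not overlap, but PP mouse 5 (8.03 CPM) and PL mouse 27 (8.05 CPM) nearly met. The log2 fold change was 0.94 ± 0.14 (edgeR adjusted p = 0.0123), on 25 to 129 reads per liver. Lipe is abundant in fat tissue, whose markers Adipoq and Lep had 0 reads in all 17 livers. The 7 markers summed to 1860 to 4307 CPM in PP and 2891 to 4304 CPM in PL, nearly all from Car3, which hepatocytes also express, while Fabp4, which macrophages and endothelium also express, was lower in PL (log2 fold change -0.48, p = 0.0392). Among the other 5 lipases tested, Pnpla2, which starts triglyceride breakdown, was higher at an unadjusted p below 0.05 (0.37 ± 0.12, p = 0.00716) and Lipa, the lysosomal lipase, was lower (-0.29, p = 0.0387). None of the 8 droplet proteins tested reached that threshold, and Plin2, the droplet coat protein of steatotic liver, was 528.1 to 1042 CPM in PP and 603.3 to 1007 CPM in PL.

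Acaa1a, a peroxisomal thiolase of fatty acid oxidation, was 70.7 to 110.4 CPM in PP (median 95.3) and 109.4 to 138.2 CPM in PL (median 126.3). Only the highest PP liver reached the PL range, and the log2 fold change was 0.41 ± 0.08 (edgeR adjusted p = 0.0462). Acaa1b, a close copy that is expressed more highly, showed no such difference (1011 to 1588 CPM in PP, 896.2 to 1889 CPM in PL, 0.03 ± 0.16). Acnat2, a peroxisomal acyltransferase of the family that conjugates fatty acids to amino acids, was 39.9 to 86.3 CPM in PP (median 57.5) and 24.6 to 46.5 CPM in PL (median 31.7). The ranges overlapped at the low end of PP, and the log2 fold change was -0.84 ± 0.15 (adjusted p = 0.0226). Its copy Acnat1 had a log2 fold change of -0.52 ± 0.19 (adjusted p = 0.348).

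Slc10a2, the apical sodium-dependent bile acid transporter, was 20.3 to 39.2 CPM in PP (median 33.2) and 8.14 to 21.7 CPM in PL (median 16.4). One PP liver, mouse 6, lay inside the PL range, and the log2 fold change was -0.94 ± 0.16 (edgeR adjusted p = 0.0161). The transporter is known from bile duct cells, and the bile duct markers summed to 11.5 to 96.6 CPM in PP and 9.32 to 22.1 CPM in PL. That sum was led by Spp1 (log2 fold change -1.01, p = 0.0206), and 2 of the 5 markers were high enough to be tested. Their part in the Slc10a2 difference was not tested. P4ha1, the catalytic subunit of collagen prolyl hydroxylase, was 4.49 to 8.04 CPM in PP (median 5.85) and 2.16 to 4.80 CPM in PL (median 3.02), with a log2 fold change of -0.91 ± 0.16 (adjusted p = 0.0191) and an overlap at the upper end of PL. It rested on 13 to 54 reads per liver.

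Gnat1 encodes the transducin subunit of rod photoreceptors and is not known as a liver gene. It ranged from 6.11 to 12.8 CPM in PP (median 10.0) and from 13.4 to 22.3 CPM in PL (median 17.0). All PL livers were above all PP livers, with a log2 fold change of 0.79 ± 0.13 (edgeR adjusted p = 0.0158). The transcript with most of its reads, Gnat1-205 (46.2% ± 8.3 in PP and 50.2% ± 5.6 in PL, SD, n = 9 and 8), is annotated as a retained intron and not as protein-coding. The next expressed gene on the same strand of chromosome 9, Slc38a3, a glutamine transporter, was abundant and also higher in PL (554.9 to 1087 CPM in PP, 971.3 to 1644 CPM in PL, 0.48 ± 0.13, adjusted p = 0.150). Whether transcription through Slc38a3 bears on the Gnat1 reads was not tested.

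The rise of Cry2 and Per3 stood in a wider difference of clock genes. Cry2, a repressor of the clock, was 11.4 to 19.4 CPM in PP (median 16.0) and 18.8 to 26.3 CPM in PL (median 22.9), with 1 PL and 1 PP liver in the overlap and a log2 fold change of 0.54 ± 0.10 (edgeR adjusted p = 0.0303). Per3 was 2.26 to 5.76 CPM in PP (median 3.13) and 3.92 to 17.9 CPM in PL (median 9.34), with overlap at the low end of PL and a log2 fold change of 1.38 ± 0.27 (adjusted p = 0.0462). Per1 and Per2, its paralogs, were not changed at an unadjusted p below 0.05 (-0.55 ± 0.39 and 0.00 ± 0.24), and Cry1 was lower (-1.06 ± 0.28, p = 0.00146). With the transcript length offset the sign turned for Cry1 (0.11) and Tef (-0.7075).

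Of 17 clock genes tested, 8 were higher and 3 lower at an unadjusted p below 0.05, against 5.09% and 5.02% of all genes. Dbp, an output factor that peaks late in the rest phase of mice, was 7.33 to 31.1 CPM in PP (median 12.7) and 20.7 to 92.5 CPM in PL (median 50.7), with a log2 fold change of 1.52 ± 0.32 (edgeR adjusted p = 0.0670). Tef, of the same family, was also higher (0.59), and Nfil3, which binds the same D-box sites as a repressor, was lower (-1.09, from a PP median of 16.6 CPM to a PL median of 6.90 CPM). The positive-arm gene Bmal1 was 2.43 to 14.8 CPM in PP (median 11.8) and 0.63 to 10.0 CPM in PL (median 3.24), with wide overlap and a log2 fold change of -1.17 ± 0.41. The E-box, searched as CACGTG, was found before Cry1 and Usp2 among the clock genes, before 0 of the 16 DEGs and before 6.89% of all genes tested. The D-box, searched as TTANNTAA, was found before Per3 and Per2 among the clock genes and before 3.35% of all genes tested. Among the DEGs, Per3, which rose, and Slc10a2, which fell, held it. Before Per3 it occurred at 2 places in chr4:151129261-151129339 (minus strand), shown in capitals because the genes of the factors that bind it differed between the groups.
Per3: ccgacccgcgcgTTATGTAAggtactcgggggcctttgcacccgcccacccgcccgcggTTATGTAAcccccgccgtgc

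A clock index, the mean log2 CPM of Dbp, Tef and Per3 minus that of Bmal1 and Npas2, set the livers on 1 scale. Npas2 was too low to be tested in PL against PP, so its part of the index rests on few reads. The index was 0.46 to 3.74 in PP (median 1.60) and 1.56 to 6.37 in PL (median 4.40). The PP livers were not uniform, since mice 6, 9 and 10 lay at 3.52, 3.52 and 3.74, within the PL range, and mice 3 and 4 were just above the lowest PL liver. In all, 5 of 9 PP livers lay above the lowest PL liver and 3 of 8 PL livers below the highest PP liver. PL mouse 21 lay at 1.56 among the other PP livers. In PP mice 6, 9 and 10 Lipe was 5.12, 4.38 and 6.40 CPM, within the range of the other PP livers or below it, and in PL mouse 21 it was 14.9 CPM, the highest of all. Dnajb1 was 12.0, 19.1 and 19.2 CPM in the 3 PP livers and 6.49 CPM in PL mouse 21. Lipe and Dnajb1 were picked because they stayed DEGs with the index as a covariate. Gnat1 was 10.1, 12.4 and 12.8 CPM in the 3 PP livers, 12.8 CPM being the highest of PP, and 15.0 CPM in PL mouse 21. Time of day was not given in the sources used here, so a difference in the time of sampling and a difference by genotype cannot be told apart. With the index as a covariate, 2 DEGs remained (Lipe 1.17 and Dnajb1 -1.08 on the log2 scale, both with edgeR adjusted p = 0.00972), and 14 of 31 heat-shock genes and 8 of 25 ER genes were lower at an unadjusted p below 0.05. Over all genes, 1069 reached that threshold in the main fit and 1365 in the fit with the index, in either direction. With the index the log2 fold change of Gnat1 went from 0.79 to 0.53 and that of Acnat2 from -0.84 to -0.52. That of Hspa1b went the other way, from -1.84 to -2.26. The median size of the 16 was 0.88 in the main fit and 0.83 with the index. Per3 is itself part of the index, so its value in that fit is not given.

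**Figure D3:**
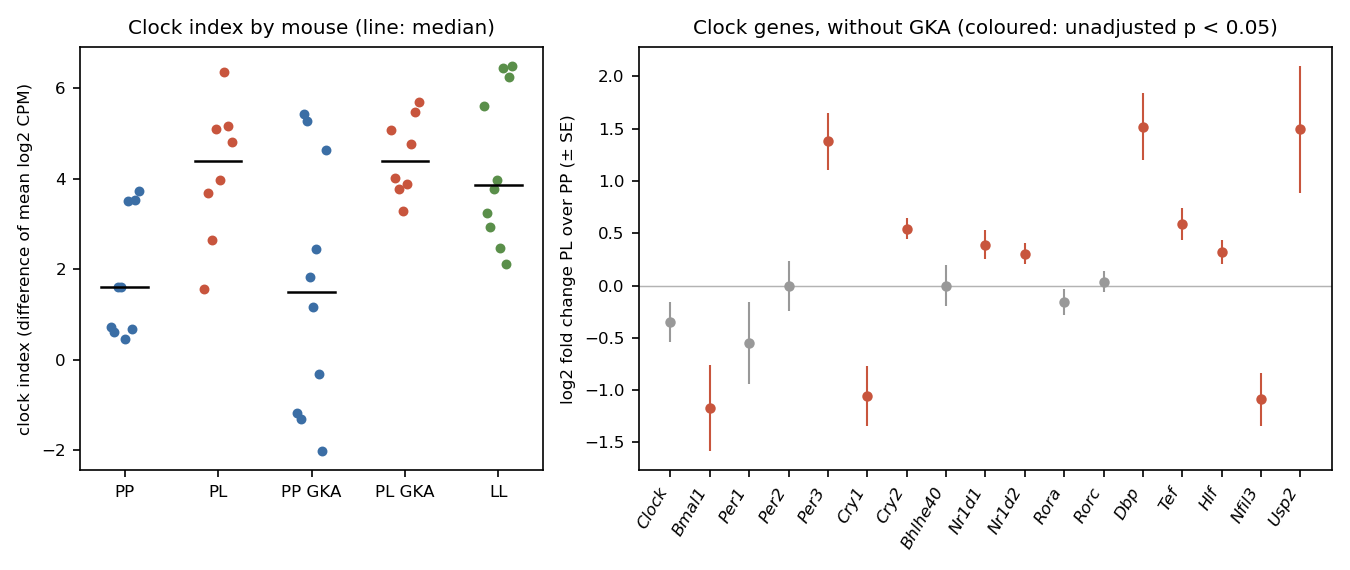
Left, the clock index of each mouse (y axis, difference of mean log2 CPM) by group with a line at the median. Right, log2 fold change of PL over PP without GKA with its standard error for the 17 clock genes tested, coloured where the unadjusted p was below 0.05. In the left panel 3 PP mice sit near 3.5 within the PL range of 1.56 to 6.37, and PP mice given GKA spread from -2.02 to 5.44.

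Genes of glucose and lipid metabolism mostly did not pass the test. Ppp1r3b, the subunit that targets protein phosphatase to glycogen in liver, ranged from 138.1 to 308.1 CPM in PP (median 198.8) and from 43.4 to 173.5 CPM in PL (median 86.6), with a log2 fold change of -1.02 ± 0.23 (edgeR adjusted p = 0.0779). Insig2, an ER anchor that restrains cholesterol synthesis, was 289.9 to 422.4 CPM in PP (median 363.4) and 134.8 to 315.4 CPM in PL (median 242.9), with -0.60 ± 0.14 (adjusted p = 0.0730). Both overlapped between the groups, and in both all 8 PL livers were below the PP mean.

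G6pc1, the catalytic subunit of glucose 6-phosphatase, was 107.5 to 429.5 CPM in PP and 93.7 to 209.2 CPM in PL (-0.51 ± 0.26, p = 0.0644), and the glycolytic gene Pklr gave -0.09 ± 0.20. In the lipogenesis list Elovl6, a fatty acid elongase, was lower (-0.83 ± 0.37, p = 0.0385 by edgeR). It was the 1 of 12 genes (8.3%) at an unadjusted p below 0.05, against 10.1% of all genes. Gluconeogenesis, fatty acid oxidation and the immediate early genes had 0 of 7, 0 of 12 and 0 of 7 genes past it by edgeR, with 0 past the adjusted threshold.

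Bile acid and sterol export genes held 2 of 10 past it on the high side, against 5.09% of all genes, Abcg8, a subunit of the sterol exporter (0.34, p = 0.00443), and Nr1h4, the bile acid receptor (0.19, p = 0.0111). Cholesterol biosynthesis gave other counts in the other comparisons. Without GKA, 0 of 20 genes had an unadjusted p below 0.05 in PL against PP by edgeR and the list median was 0.15. With GKA, in other mice, 13 of the 20 were higher in PL at an unadjusted p below 0.05, which 8.19% of all genes reached in either direction, and the list median was 0.60. The difference of the effects between the mice with and without GKA had an unadjusted p below 0.05 for 6 of the 20, against 3.35% of all genes, and none passed after adjustment. Sqle, the squalene epoxidase, had log2 fold changes of 0.57 ± 0.43 without and 1.98 with GKA. LL livers stood on the other side, since 13 of the 20 were lower at that threshold in LL than in the same PP mice (median -0.47, p below 0.05 for 11.8% of all genes), and 15 of 20 were lower in LL than in PL without GKA (median -0.55, p below 0.05 for 4.58% of all genes).

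**Figure D4:**
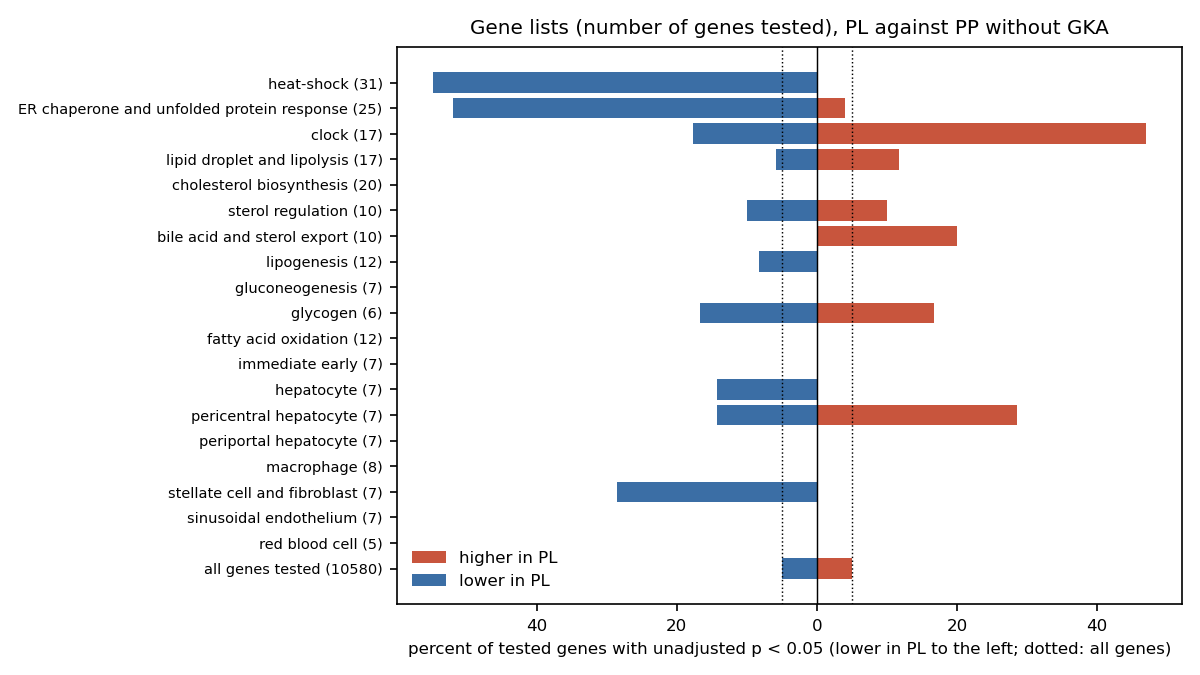
Percent of the tested genes of each list (y axis, number tested in brackets) with an unadjusted p below 0.05 in PL against PP without GKA, lower in PL to the left and higher to the right, for most lists with 5 or more genes tested. The dotted lines mark the 5.02% and 5.09% of all genes tested, and the heat-shock, ER and clock lists extend furthest past them.

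The 16 DEGs were then followed in the mice given GKA, which share no animal with the first comparison. There 0 of 10520 genes were DEGs by edgeR, although 862 (8.19%) had an unadjusted p below 0.05 and DESeq2 called 36. All 16 kept their direction, and 12 of them had an unadjusted p below 0.05. Of all genes tested in both comparisons 63.8% had the same direction with and without GKA, and of those with an unadjusted p below 0.05 without GKA 81.4% did. Hsph1 was below the PP mean in all 8 PL livers, with overlap between the groups (-0.96, adjusted p = 0.113), and Acnat2 was lower by nearly as much as without GKA (-0.78, adjusted p = 0.209). The 4 without such a p were Tsc22d3 (-0.54), Hspa1b (-0.52), Srsf10 (-0.17) and Acaa1a (0.09). The median size of the 16 log2 fold changes was 0.88 without GKA and 0.53 with GKA. Since the genes were picked for their difference without GKA, a smaller size in other mice is not read as an effect of GKA.

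Across all genes, the comparisons with and without GKA shared part of their lists. Of 10376 genes tested in both, 1058 had an unadjusted p below 0.05 without GKA and 846 with GKA. There were 238 genes past that threshold in both with the same direction, which is 22.5% of the first list and 28.1% of the second, while 3 were past it with opposite directions. Heat-shock genes lower with GKA at that threshold numbered 13 of 31 and ER list genes 15 of 25, with list medians of -0.16 and -0.31. Clock genes numbered 7 higher and 4 lower of 17. Of the 10376 genes tested in both, 404 were higher and 442 lower at that threshold with GKA.

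**Figure D5:**
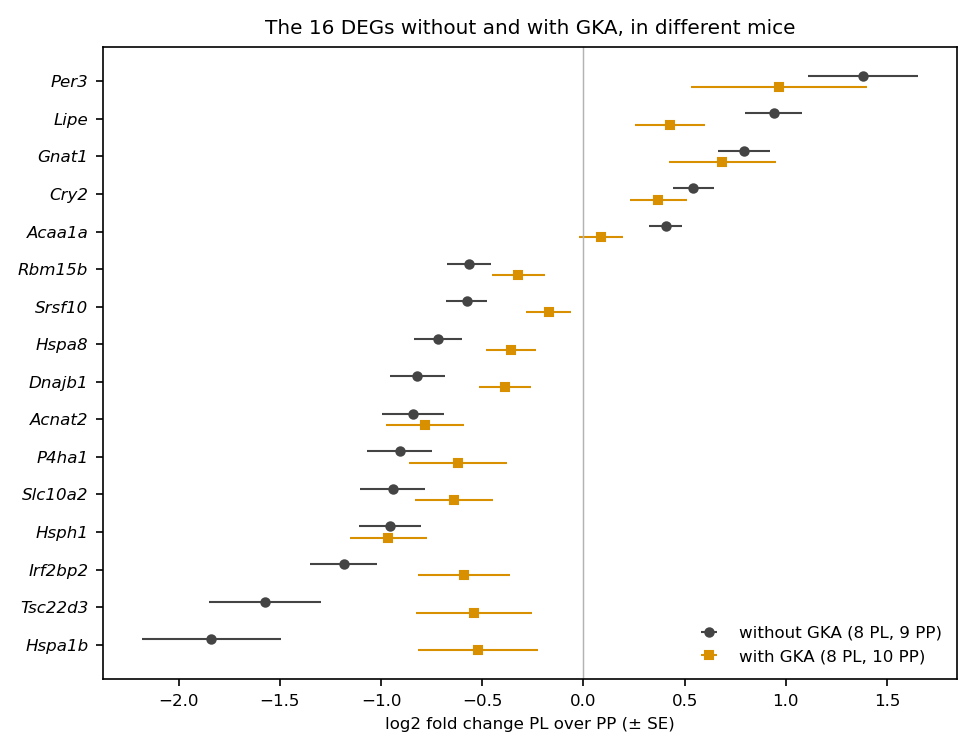
Log2 fold change of PL over PP with its standard error (x axis) for the 16 DEGs (y axis), in mice without GKA (circles, 8 PL and 9 PP) and in different mice given GKA (squares, 8 PL and 10 PP). All 16 pairs lie on the same side of 0, and the squares lie closer to 0 for 15 of the 16.

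LL livers without GKA were compared with the same 9 PP livers, so the 2 comparisons are not independent and their values are given side by side. The clock index of the LL livers was 2.12 to 6.49 (median 3.87). The log2 fold changes against PP were -1.19 in PL and -0.72 in LL for Irf2bp2, and 0.94 and 0.71 for Lipe. For Hsph1 they were -0.96 and -0.92, for Slc10a2 -0.94 and -0.88, and for Acaa1a 0.41 and 0.41. For Tsc22d3 the PL value was -1.57, and its LL livers spread from 14.1 to 70.2 CPM, from below the PL range into the middle of the PP range. No DEG of PL against PP had an adjusted p below 0.05 in LL against PP by edgeR, where 9 of 10537 genes were DEGs and 11.8% had an unadjusted p below 0.05. Of the 16, 15 had such an unadjusted p. The 16 were picked on the same PP livers, so this count is no separate support. The direct test of LL against PL made 1 of 10616 genes a DEG, and it was none of the 16. At an unadjusted p below 0.05, which 4.58% of all genes reached, LL differed from PL in 4 of the 16, each with LL on the PP side of PL. Their log2 fold changes of LL over PL were -0.44 for Gnat1, 0.57 for Tsc22d3, 0.25 for Srsf10 and -0.24 for Cry2. None passed after adjustment, and the PL livers of this test are those by which the 16 genes were picked.

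Within genes, the share of reads on the leading transcript was examined for the 13 DEGs with reads on at least 2 transcripts. No share differed between PP and PL (two-sided exact permutation test of the means, smallest p = 0.163, smallest adjusted p = 0.572). The shares varied widely between mice of a group, with 56.6% ± 37.4 in PP and 45.6% ± 29.8 in PL (SD) for Lipe-202 and 82.1% ± 26.3 and 61.1% ± 33.4 for Per3-201. Irf2bp2, Slc10a2 and Hspa1b had 1 transcript each with reads. The leading transcript of Gckr, Gckr-202, took 48.4% ± 10.2 of its reads in PP and 49.9% ± 10.4 in PL.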

How the data were processed

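RNA-seq of 56 mouse livers was quantified by the authors with Salmon 1.4.0 against GENCODE M26 transcripts (GRCm39), without read trimming. The deposited estimated counts per transcript were not normalized, and the deposited TPM values are scaled by transcript length and library. Estimated counts were summed per gene through GENCODE M39 (137570 of 139225 transcripts matched, 98.8%, holding 99.79% to 99.85% of reads) and rounded.

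PL was tested against PP with edgeR 4.0.16 (filterByExpr, TMM factors, quasi-likelihood F test) in R 4.3.3. Library sizes limit precision most for genes with few reads, whose read ranges are given. The text names Gckr, all DEGs, the 4 list members with the smallest p (all members of role groups of 8 or fewer) and the clock index genes. Gene lists and comparisons were chosen with earlier results of these data known. Members of larger role groups (chaperones, Plin2, Sqle, Pklr), close copies of DEGs and Slc38a3 were added after their values were seen. One gene fixed for naming and the list built on it are not reported here. Groups followed the sample titles, and mice were replicates. Any 2 livers of a group differed by more than sampling noise. Strandedness of counting was not given in the sources used here. Alternatives were DESeq2 1.42.0, limma-voom 3.58.1, other size factors, filters, sample sets, a length offset, a clock covariate and leaving out each mouse. The fits were tested on simulated data. Permutation tests used SciPy 1.17.1.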

Additional observations from a re-analysis of the deposited data

Results flagged for a closer look

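Hspa1b in PP mouse 10 stood apart from the other 8 PP livers at 21.9 CPM, with a gap to the next liver of more than the 95% limit of Dixon's test allows. It was the only such value among 38 groups of values examined (the 16 DEGs, Gckr, the clock index and read totals in PP and in PL), where chance alone would give about 2. Without this mouse the PP and PL log2 fold change of Hspa1b was -1.54.

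For 8 of the 16 DEGs the effect of PL with GKA differed from that without GKA at an unadjusted p below 0.05 in the edgeR interaction fit. The differences, effect with GKA minus effect without, on the log2 scale, were 0.598 for Irf2bp2 (p = 0.0473), -0.513 for Lipe (p = 0.0309), 0.437 for Dnajb1 (p = 0.0261), 0.363 for Hspa8 (p = 0.0412), 1.04 for Tsc22d3 (p = 0.0167), 0.407 for Srsf10 (p = 0.01), 1.32 for Hspa1b (p = 0.00795) and -0.318 for Acaa1a (p = 0.0255). In each of the 8 the effect was nearer 0 with GKA. None passed after adjustment over the 11152 genes of that fit, which gave 0 genes by edgeR and 374 at an unadjusted p below 0.05. The genes had been picked on the effect without GKA, which enters this difference.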

How the results depend on the processing

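All 16 DEGs kept their direction under every alternative run. The number of DEGs was 68 with DESeq2 (30 higher, 38 lower, all 16 among them), 33 with PP mouse 7 kept (17 higher, 16 lower, all 16 among them), 6 with the 3 genotypes without GKA in 1 fit, 2 with the clock index as covariate and 0 with an offset for transcript length, where 929 genes had an unadjusted p below 0.05, 10 of the 16 among them, and the smallest adjusted p was 0.0544. Other settings gave 12 to 21 DEGs. The filter at 1 CPM in 8 mice tested more genes than the main one, so it was not stricter. Leaving out 1 mouse gave 5 (without PL mouse 25) to 31 DEGs (without PP mouse 6), with 6 without PL mouse 28 and 7 without PL mouse 26. Irf2bp2, Lipe, Hsph1, Gnat1 and Dnajb1 were DEGs in all 17 of these fits, Acaa1a in 4, Per3 in 5, and Hspa1b and Rbm15b in 6 each. With GKA the number was 36 with DESeq2, 21 with all 6 groups in 1 fit and 0 otherwise.

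Heat-shock genes lower in PL at an unadjusted p below 0.05 numbered 6 with the length offset (16 to 18 without 1 mouse), and ER list genes 6 with the length offset and 8 with the clock covariate (12 to 17 without 1 mouse). Over all genes, 929 with the length offset and 1365 with the clock covariate reached that threshold, in either direction. Sign changes are listed only for named genes with an unadjusted p below 0.05 in the main or the alternative fit. Over all alternatives, 187 other sign changes of named genes had no such p in either fit. Listed signs turned with the length offset for Hspa4l (0.45), Dnajb2 (0.26), Chordc1 (0.0244), Cacybp (0.0732), Edem1 (0.42), Cry1 (0.11), Tef (-0.7075), Gys2 (-0.89), Hnf4a (0.0072) and Dcn (0.11). With the clock covariate they turned for Trib3 (-0.15), Bmal1 (0.13), Usp2 (-0.89), Gys2 (-0.14) and Ugp2 (-0.37). Bmal1 is part of the index, so its value there is set by the fit's construction. For the others the cause was not tested. No leading transcript share differed in TPM either.

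No paired analysis was possible because the groups share no mouse numbers. Labels gave no batch, so none was examined, and the low-count filter left genes with few reads untested.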

Other observations

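Of the 8 genes whose PP and PL ranges did not overlap, 4 were not DEGs. They were chosen after their values were seen. Mal2, a membrane traffic protein of hepatocytes, was 31.3 to 37.8 CPM in PP and 19.4 to 30.8 CPM in PL (log2 fold change -0.39, edgeR adjusted p = 0.0722). Foxk2, a forkhead transcription factor, was 9.303 to 13.7 CPM in PP and 6.49 to 9.300 CPM in PL (-0.49, adjusted p = 0.0670). Slc35b2, a Golgi carrier of the sulfate donor, was 14.1 to 18.5 CPM in PP and 19.0 to 25.2 CPM in PL (0.30, adjusted p = 0.109). The gene 2900026A02Rik was 42.4 to 68.1 CPM in PP and 73.2 to 98.3 CPM in PL (0.43, adjusted p = 0.0670). In the mice given GKA their log2 fold changes were -0.40, -0.26, 0.29 and 0.24, each in the same direction.

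Among pericentral hepatocyte markers, which line the central vein side of the lobule, Cyp2c29 was lower in PL (log2 fold change -0.68, p = 0.00186 by edgeR) while Cyp2e1 (0.33, p = 0.0229) and Cyp1a2 (0.57, p = 0.0427) were higher, so the list did not move as 1 group. Over all genes tested, 5.02% were lower and 5.09% higher at an unadjusted p below 0.05. Of 7 periportal markers 0 had an unadjusted p below 0.05 by edgeR.

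PP mouse 7, which did not enter the comparison, lay outside the range of the other 9 PP livers in 7 of the 16 DEGs. It held 3.10 CPM of Lipe and 8.92 CPM of Cry2, below all other PP livers, and 13.6 CPM of Gnat1, above them.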
